A study of Mus musculus with 12 samples.

Results

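The nuclear genes for subunits of respiratory complexes II to V were examined in 4 lines of mouse embryonic fibroblasts (MEFs). Genes were taken by symbol: *Sdha*, *Sdhb*, *Sdhc*, *Sdhd*, *Cyc1*, and every symbol that begins with Uqcr, with Atp5, or with Cox followed by a digit from 4 to 8. This rule found 48 of the 24453 genes in the table, namely 4 for complex II, 9 for complex III, 18 for complex IV and 17 for complex V. The table holds 0 genes encoded in mitochondrial DNA (mtDNA), so the partner subunits made inside mitochondria are not covered. A filter on low counts passed 42 of the 48 genes, and these 42 were tested.

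Complex II (succinate dehydrogenase) passes electrons from succinate to ubiquinone, complex III passes them to cytochrome c, complex IV (cytochrome c oxidase) passes them to oxygen, and complex V (ATP synthase) uses the resulting proton gradient to make ATP. Complex II is built from nuclear-encoded subunits alone, whereas complexes III, IV and V combine nuclear-encoded subunits with subunits encoded in mtDNA. Several complex IV subunits exist as a widely expressed form and a form restricted to tissues such as heart, skeletal muscle, brown fat, lung or testis, each from its own gene.

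The study asks how cells adapt to loss of polynucleotide phosphorylase (PNPase), the exoribonuclease encoded by *Pnpt1*, and to loss of mtDNA. The parental line, TM6, was immortalized with the SV-40 large T-antigen; its strain is given as C57BL6/J and its genotype as Pnpt1 neo-flox/neo-flox, meaning that loxP sites flank part of exon 2 of both alleles. The rho0 line came from TM6 cells grown in ditercalinium (750 ng/mL) for 3 weeks, and the knockout lines PKO-1 and PKO-6 came from TM6 cells given an adenovirus that expresses Cre recombinase. Each of these 3 derived lines is 1 single-cell colony, and the study describes all 3 as lacking mtDNA; every line was grown with uridine (50 µg/mL).

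Each line is represented by 3 biological replicates, which are cultures of the same line, so differences between lines cannot be separated from differences between the colonies they grew from. RNA was purified with TriZol or with an RNeasy kit, and the study does not say which samples had which. The part of this in differences between libraries was not tested. Libraries were depleted of ribosomal RNA and were strand-specific, and each holds the merged reads of technical duplicates. The ribosomal RNA precursor gene *Rn45s* still held 12.2% to 19.6% of the counts of a library. Total estimated counts ranged from 47164860 to 67991378 per library, with a median of 55405646. TM6 libraries held 56696100 to 66533418 counts, rho0 libraries 48900025 to 62222928, PKO-1 libraries 47164860 to 54344410 and PKO-6 libraries 53260426 to 67991378.

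The targeted gene was read first. Normalized counts of *Pnpt1* (chr11:29130751-29161828, plus strand, GRCm38) were 2832, 3242 and 3319 in TM6, 5051, 5251 and 5510 in rho0, 1254, 1191 and 1276 in PKO-1, and 1897, 1720 and 2214 in PKO-6. Every library of either knockout clone was below every TM6 library, and every rho0 library was above them. The log2 fold change against TM6 was 0.75 for rho0, -1.34 for clone PKO-1 and -0.69 for clone PKO-6, and all 3 passed the test. Most of the transcript lies outside the deleted part of exon 2, so these counts do not measure the deletion itself.

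The label of fibroblasts was read against 16 marker genes. Of these, 15 passed the low-count filter, and *Thy1* did not, with a mean of 2.81 normalized counts in TM6 and 0 in PKO-6. *Vim* averaged 125328 ± 2997 normalized counts in TM6, 84322 ± 7877 for rho0, 119229 ± 3200 for clone PKO-1 and 70033 ± 7883 for clone PKO-6 (SD, n = 3). The markers summed to 676880 ± 28049 for TM6, 516924 ± 29338 for rho0, 681565 ± 26614 for clone PKO-1 and 405204 ± 21720 for clone PKO-6. The marker *Fn1* was the most abundant with all libraries pooled, but not in TM6, where its mean of 113270 was below that of *Vim*. Its means were 237872 for rho0, 259106 for clone PKO-1 and 208419 for clone PKO-6. Against TM6, 1 of the 15 was higher and 11 lower in rho0, 8 higher and 4 lower in PKO-1, and 2 higher and 9 lower in PKO-6. The part of these differences in the results below was not tested.

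Of the 42 tested subunit genes, 4 were higher and 14 lower in rho0 than in TM6, or 9.52% and 33.3%, where 20.7% of all 14026 tested genes were higher and 21.4% lower. A gene was called when edgeR's quasi-likelihood test gave a Benjamini-Hochberg adjusted p below 0.01 and the log2 fold change was beyond 0.5 in either direction. In PKO-1, 4 subunit genes were higher (9.52%, against 16.4% of all tested genes) and 5 lower (11.9%, against 17.9%). In PKO-6, 4 were higher (9.52%, against 21.9%) and 7 lower (16.7%, against 19.4%). Several chromosomes differed as a whole, as described below, and with the median of each chromosome removed the calls went from 18 to 14 in rho0, from 9 to 2 in PKO-1 and from 11 to 8 in PKO-6, where those of all tested genes went from 5902 to 5419, from 4810 to 4042 and from 5799 to 5382. The 2 left in PKO-1 were *Atp5sl* and *Cox6a2*, both higher. The PKO-6 count was 7 without PKO-6 replicate 3 and 14 without PKO-6 replicate 2, each of 43 subunit genes tested. In the first refit 9.3% were higher and 6.98% lower, against 21.5% and 18.4% of all tested genes. In the second 9.3% were higher and 23.3% lower, against 20.6% and 21.2%. The median log2 fold change of the subunit genes was -0.30 for rho0, -0.03 for clone PKO-1 and -0.18 for clone PKO-6, and over all tested genes it was 0.02, 0.00 and 0.01. These 3 comparisons share the TM6 libraries, so they are not independent of each other. A lower level in bulk RNA can mean fewer cells with a transcript or less transcript per cell, and fewer cells of a type and less RNA per cell cannot be told apart here.

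The derived lines were also compared with each other. PKO-1 had 11 subunit genes higher than rho0 (26.2%, against 15.1% of all tested genes) and 2 lower (4.76%, against 17.6%). PKO-6 had 6 higher than rho0 (14.3%, against 13.3%) and 0 lower, where 8.16% of all tested genes were lower; at an unadjusted p below 0.05 edgeR gave 2 lower, and DESeq2 called 0. Between the knockout clones, 6 were higher in PKO-1 (14.3%, against 11.5%) and 1 was lower (2.38%, against 17.6%). Median log2 fold changes of the subunit genes were 0.25 for PKO-1 against rho0, 0.21 for PKO-6 against rho0 and 0.09 for PKO-1 against PKO-6. The calls, 13, 6 and 7 in these comparisons, were 9, 4 and 5 with chromosome medians removed, where those of all tested genes went from 4590 to 4166, from 3014 to 2716 and from 4087 to 3619. These are net counts: *Sdhd* (0.70), *Cox7a2* (0.73) and *Atp5l* (0.74) became called as higher in PKO-1 than in rho0, and *Uqcr11* (0.51) as higher in PKO-1 than in PKO-6.

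Across the 3 comparisons with TM6, 21 subunit genes were called in at least 1 line (50%, against 60.5% of all tested genes) and the other 21 in none. *Cox6a2*, *Atp5s* and *Atp5sl* were higher in all 3 derived lines (7.14%, against 8.28%), and *Cox7b* and *Uqcrfs1* were lower in all 3 (4.76%, against 9.25%). Of these 5, *Cox6a2* and *Atp5sl* kept the pattern with chromosome medians removed; *Atp5s* was then called in no line, *Cox7b* in rho0 alone, and *Uqcrfs1* in rho0 and PKO-6. *Atp5k* was the 1 gene called in opposite directions, lower in rho0 and higher in PKO-1 (2.38%, against 3.41%). A further 6 genes (*Uqcr11*, *Uqcrh*, *Cox6b1*, *Cox6c*, *Atp5d* and *Atp5l*) were called lower in rho0 and not called in either knockout clone (14.3%, against 4.26%). There were 7 such genes with chromosome medians removed (16.7%, against 3.43%): *Atp5d* and *Cox6c* lost the call in rho0, and *Atp5k*, *Cox7a2* and *Cox7b* joined by losing a call in PKO-1, PKO-6 or both. Without that removal, and tested directly against rho0, *Atp5d* was not called in PKO-1 (0.43) or PKO-6 (0.38). Neither was *Atp5l* (0.35 and 0.40), and *Cox6b1* was called higher in PKO-1 (0.74) but not in PKO-6 (0.24). *Uqcr11*, *Uqcrh* and *Cox6c* were called higher in both clones. Against TM6, *Cox6b1* in PKO-6 was lower at edgeR adjusted p 0.00288 but under the fold threshold.

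**Figure D1:**
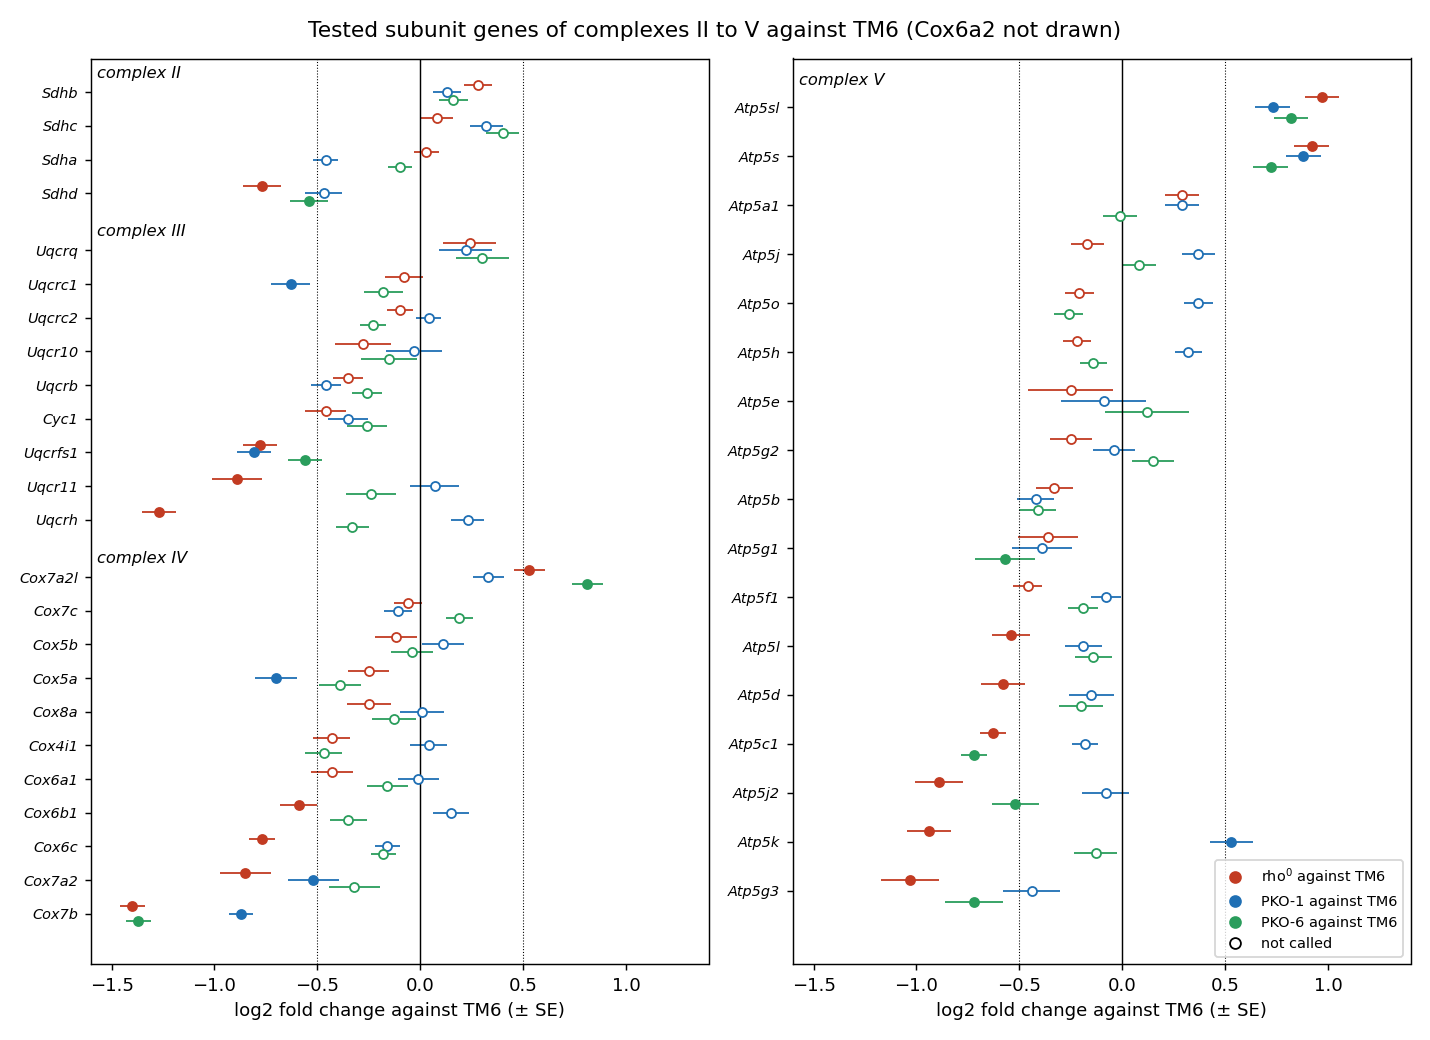
Log2 fold change against TM6 (± SE) of the tested subunit genes other than *Cox6a2*, in rows grouped by complex, for rho0, PKO-1 and PKO-6; filled points passed the test and dotted lines mark ±0.5. *Cox7b* is lowest in all 3 lines, at -1.40, -0.87 and -1.37, and *Atp5s* and *Atp5sl* are filled on the right in all 3 lines.

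The symbols of 3 tested genes place them among subunits although they are not core subunits. *Cox7a2l* encodes a factor that joins complexes III and IV into supercomplexes, *Atp5sl* (now *Dmac2*) encodes an assembly factor of complex I, and *Atp5s* (now *Dmac2l*) encodes a protein related to it. With these left out, 39 genes remain, of which 1 was higher and 14 lower in rho0, 2 higher and 5 lower in PKO-1, and 1 higher and 7 lower in PKO-6. Of all tested genes, 20.7% were higher and 21.4% lower in rho0, 16.4% and 17.9% in PKO-1, and 21.9% and 19.4% in PKO-6. The median log2 fold changes of the 39 were -0.35, -0.08 and -0.19.

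Levels were summed over each complex as normalized counts per kilobase of effective transcript length, the scale on which levels of different genes can be compared. Complex II summed to 15428 ± 355 in TM6 (SD, n = 3), and stood at 97.6% of this in rho0, 93.8% in clone PKO-1 and 100% in clone PKO-6. The sum for complex III was 78237 ± 1730 for TM6, 57793 ± 7168 for rho0, 74945 ± 4086 for clone PKO-1 and 69393 ± 5543 for clone PKO-6. These are 73.9%, 95.8% and 88.7% of TM6. For complex IV the sums were 136369 ± 2861, 106203 ± 11254, 129216 ± 6194 and 122519 ± 6728 in the same order, which put rho0 at 77.9% of TM6, PKO-1 at 94.8% and PKO-6 at 89.8%. The complex V sums were 229372 ± 5138, 173978 ± 18292, 228271 ± 14692 and 192320 ± 15972, or 75.9% of TM6 for rho0, 99.5% for clone PKO-1 and 83.8% for clone PKO-6. For complexes III, IV and V, all rho0 and PKO-6 libraries lay below all TM6 libraries, and PKO-1 overlapped TM6 except at complex IV, where it lay just below. The libraries of a line also differed in their *Rn45s* share: in rho0 replicates 1 to 3 it was 19.6%, 15.8% and 15.8%, beside complex III sums of 65923, 52385 and 55071, and in PKO-6 it was 17.8%, 19.2% and 12.2%, beside 69128, 75064 and 63986. In TM6 it was 17.1%, 15.3% and 13.6%, beside 78480, 79833 and 76398, and in PKO-1 13.2%, 14.4% and 15.7%, beside 76501, 78025 and 70310. The sum was thus highest in the library with the highest share in rho0 and PKO-6 but not in TM6 or PKO-1, and the part of this share in the sums and in the calls was not tested. No p is given for these sums, since an exact permutation test of 3 libraries against 3 cannot give a p below 0.1.

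**Figure D2:**
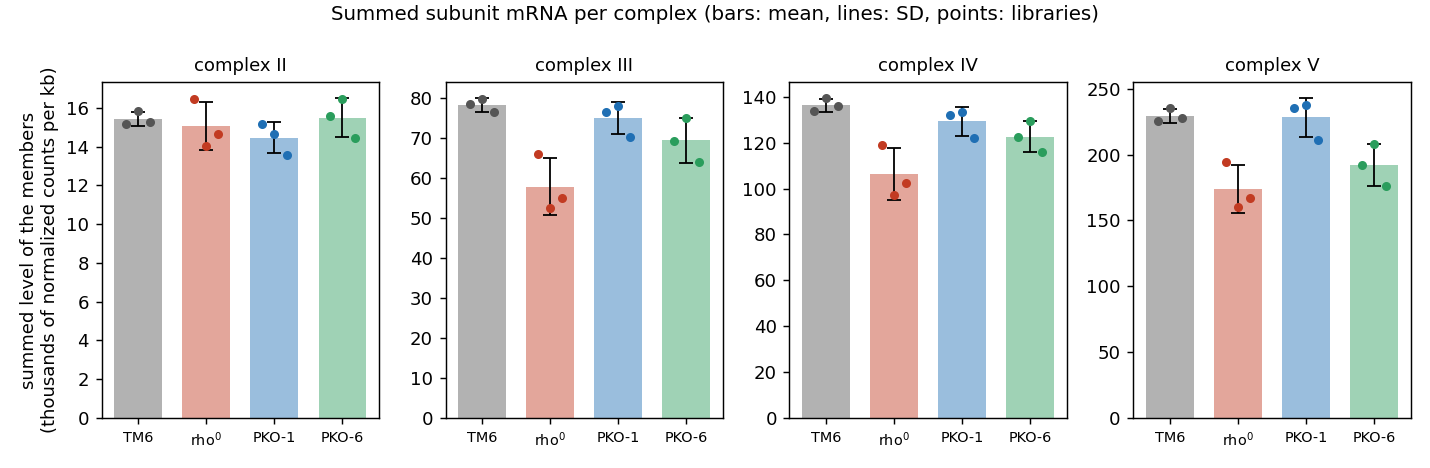
Summed level of each complex (normalized counts per kilobase of effective transcript length) in each library, with the mean and SD of each line. The rho0 means are 73.9%, 77.9% and 75.9% of TM6 for complexes III, IV and V, and 97.6% for complex II.

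Many of these transcripts are short, and short transcripts also differed between libraries. Of the tested genes, 667 have a main transcript under 800 bases, and their median log2 fold change was -0.10 for rho0, 0.05 for clone PKO-1 and -0.04 for clone PKO-6. The 25 subunit genes among them had medians of -0.35, -0.01 and -0.16, and the 17 longer ones had medians of -0.10, -0.15 and -0.19. Against the TM6 mean, the median log2 level of the 667 short genes was lowest in rho0 replicate 2 (-0.187), PKO-6 replicate 3 (-0.157) and rho0 replicate 3 (-0.148), and highest in PKO-1 replicate 2 (0.102). It was 0.049 in rho0 replicate 1. With each library's trend with transcript length removed, an alternative chosen after the data were seen, *Cox6b1* (-0.49) and *Atp5l* (-0.43) lost their call in rho0.

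Several members lie on chromosomes whose tested genes differed as a whole. The median log2 fold change of the 459 tested genes on chromosome X was -0.75 for rho0, -0.74 for clone PKO-1 and -0.87 for clone PKO-6, and that of the 491 on chromosome 12 was 0.55, 0.56 and 0.53. In PKO-1 the 776 on chromosome 9 had a median of -0.39 and the 558 on chromosome 13 a median of -0.27, in rho0 the 561 on chromosome 15 had a median of -0.38, and in PKO-6 the 739 on chromosome 8 had a median of -0.43. The 382 on chromosome 18, where *Atp5a1* lies, had medians of 0.42, 0.42 and 0.34. Below, values with the chromosome medians removed are given for members on chromosomes 8, 9, 12, 13, 15 and X whose log2 fold changes are printed. Members on other chromosomes are given the adjusted value where it changed a printed call. What lies behind these chromosome-wide differences was not tested.

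In complex II, *Sdha* and *Sdhb* encode the catalytic flavoprotein and iron-sulfur subunits, and *Sdhc* and *Sdhd* encode the membrane anchors. Per length the 4 genes had similar levels in TM6, from 3206 for *Sdhc* to 4334 for *Sdha*. Normalized counts of *Sdhd* (chr9:50596340-50603849, minus strand) were 3861, 4140 and 3927 in TM6, 2686, 2137 and 2152 in rho0, 3009, 3002 and 2598 in PKO-1, and 2680, 2996 and 2532 in PKO-6. All TM6 libraries were above all others, and the derived lines overlapped each other, with rho0 lowest on average. Against TM6, the log2 fold change was -0.77 ± 0.0915 in rho0 (SE, adjusted p 4.23e-06), -0.47 in PKO-1, which missed the fold threshold (adjusted p 0.000439), and -0.54 ± 0.0908 in PKO-6 (adjusted p 0.000113). With chromosome medians removed, the values were -0.78 in rho0 and -0.52 in PKO-6, both called, and -0.08 in PKO-1 (adjusted p 0.449), so most of the PKO-1 value is shared with chromosome 9. Without PKO-6 replicate 3, *Sdhd* in PKO-6 was at -0.49 and lost its call. The PKO-1 value passed the fold threshold without TM6 replicate 1 (-0.52), and at -0.50 without any 1 of the rho0 libraries, PKO-1 replicate 1 or 2, or PKO-6 replicate 1 or 2. *Sdhd* was the 1 complex II gene called in any comparison with TM6.

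In complex III, *Uqcrfs1* encodes the Rieske iron-sulfur protein, *Uqcrc1* and *Uqcrc2* the core proteins, *Cyc1* cytochrome c1, and *Uqcrh*, *Uqcrb*, *Uqcrq*, *Uqcr10* and *Uqcr11* small subunits without redox groups. Per length, *Uqcr11* had the highest level in TM6 (17599) and *Uqcrc2* the lowest (1807), a ratio of 9.74. Normalized counts of *Uqcrfs1* (chr13:30540312-30545316, minus strand) were 4047, 4279 and 4041 in TM6, 2708, 2289 and 2225 in rho0, 2392, 2341 and 2336 in PKO-1, and 2807, 3108 and 2478 in PKO-6. No derived library reached the TM6 range. The log2 fold change was -0.78 in rho0 (adjusted p 1.47e-06), -0.81 in PKO-1 (1.31e-06) and -0.56 in PKO-6 (3.11e-05). With chromosome medians removed, the rho0 and PKO-6 values were -0.79 and -0.63, both called, and the PKO-1 value was -0.49 and missed the fold threshold; without PKO-6 replicate 3 the PKO-6 value was -0.48 and missed it too.

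*Uqcrh*, the hinge protein gene, and *Uqcr11* were called lower in rho0 alone among the derived lines. Normalized counts of *Uqcrh* (chr4:116066965-116075070, minus strand) were 3803, 4114 and 3869 in TM6, 1852, 1499 and 1540 in rho0, 4625, 4868 and 4295 in PKO-1, and 3002, 3422 and 2963 in PKO-6. The 4 lines did not overlap: PKO-1 was highest, then TM6, then PKO-6, with rho0 lowest. *Uqcrh* was at -1.27 ± 0.0837 in rho0 (SE, adjusted p 1.14e-08), 0.23 in PKO-1, not called, and -0.33 in PKO-6, lower at adjusted p 0.0025 but under the fold threshold. Tested directly, it was higher than in rho0 by 1.49 in PKO-1 (adjusted p 4.1e-09) and by 0.94 in PKO-6 (6.64e-07) on the log2 scale.

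Normalized counts of *Uqcr11* (chr10:80402997-80406821, minus strand) were 4756, 4398 and 4123 in TM6, 2886, 2078 and 2181 in rho0, 4425, 5127 and 4351 in PKO-1, and 3791, 4201 and 3216 in PKO-6. The rho0 libraries were below all others, and TM6 overlapped both knockout clones. It was at -0.89 in rho0 (adjusted p 1.76e-05), 0.07 in PKO-1 and -0.24 in PKO-6 against TM6. Against rho0 it was at 0.96 in PKO-1 (adjusted p 1.33e-05) and 0.65 in PKO-6 (0.000562); with chromosome medians removed the PKO-6 value was 0.45 and missed the fold threshold.

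*Uqcrc1*, on chromosome 9, was called lower in PKO-1 alone. Its normalized counts were 8804, 8777 and 8472 in TM6, 9436, 7511 and 7758 in rho0, 5678, 5662 and 5480 in PKO-1, and 7676, 8712 and 6643 in PKO-6. PKO-1 was below every other library, and TM6 overlapped rho0 and PKO-6. By edgeR, the log2 fold change in PKO-1 was -0.63 against TM6 (adjusted p 4.81e-05), and with chromosome medians removed it was -0.24 and no longer called. The remaining genes of complex III (*Cyc1*, *Uqcr10*, *Uqcrb*, *Uqcrc2* and *Uqcrq*) were called in no comparison with TM6. In those comparisons no complex III gene was called higher by edgeR or by DESeq2; at an unadjusted p below 0.05, edgeR had 0 higher in rho0 and 1 in each knockout clone.

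In complex IV, 12 of the 18 genes passed the low-count filter. The nuclear subunits surround the mtDNA-encoded catalytic core, and those with paired isoforms are taken first. Subunit 6a has a widely expressed form from *Cox6a1* and a heart and skeletal muscle form from *Cox6a2*. Normalized counts of *Cox6a2* (chr7:128205435-128206366, minus strand) were 2.59, 0.955 and 2.99 in TM6, 735, 540 and 521 in rho0, 41.7, 80.9 and 61 in PKO-1, and 1066, 991 and 853 in PKO-6. The 4 lines did not overlap, with TM6 near 0, PKO-1 next, then rho0, and PKO-6 highest.

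The TM6 libraries held 7 counts of *Cox6a2* in all, so its ratio to TM6 is given from pooled counts with an exact 95% interval (Clopper-Pearson, conditional on the total). The ratio was 277 (134 to 691) in rho0, 28.4 (13.5 to 71.6) in PKO-1 and 447 (217 to 1112) in PKO-6. These intervals, like the floors given for absent genes, cover counting error only, since reads were amplified and carried no molecular identifiers. The quasi-likelihood test called the gene in all 3 lines, at adjusted p 8.54e-11, 3.66e-07 and 2.11e-11. The fitted fold change depends on the prior count and is no bound.

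Between the derived lines, *Cox6a2* in PKO-1 was below that in PKO-6, at a log2 fold change of -3.97 ± 0.202 (SE, adjusted p 1.28e-09), and below that in rho0, at -3.28 ± 0.201 (9.53e-09). PKO-6 was higher than rho0 by 0.69 ± 0.163 (adjusted p 0.0028). That last difference lost its call without rho0 replicate 2 (0.61), without rho0 replicate 3 (0.59) or without PKO-6 replicate 1 (0.61). The gene *Itgad* overlaps *Cox6a2* on the opposite strand and had at most 7 counts in any library. Whether the counts were assigned by strand is not stated, so reads from an overlapping gene or a near-identical copy cannot be told apart from those of a member.

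Normalized counts of *Cox6a1* (chr5:115345654-115348955, minus strand) were 6595, 6446 and 5927 in TM6, 5470, 4143 and 4511 in rho0, 6094, 6695 and 6047 in PKO-1, and 5780, 6249 and 4937 in PKO-6. Only rho0 was wholly below TM6, at a log2 fold change of -0.43, under the fold threshold, and the gene was called in no line; without rho0 replicate 1 it was at -0.56 in rho0 and was called. Per length, *Cox6a2* made up 0.0256% ± 0.0133 of the pair in TM6 (SD, n = 3), 8.52% ± 0.643 for rho0, 0.705% ± 0.197 for clone PKO-1 and 11.2% ± 0.736 for clone PKO-6. The pair summed to 18168 ± 731 for TM6, 14695 ± 1843 for rho0, 18248 ± 768 for clone PKO-1 and 18111 ± 1549 for clone PKO-6, and *Cox6a1* remained the main form in every library.

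**Figure D3:**
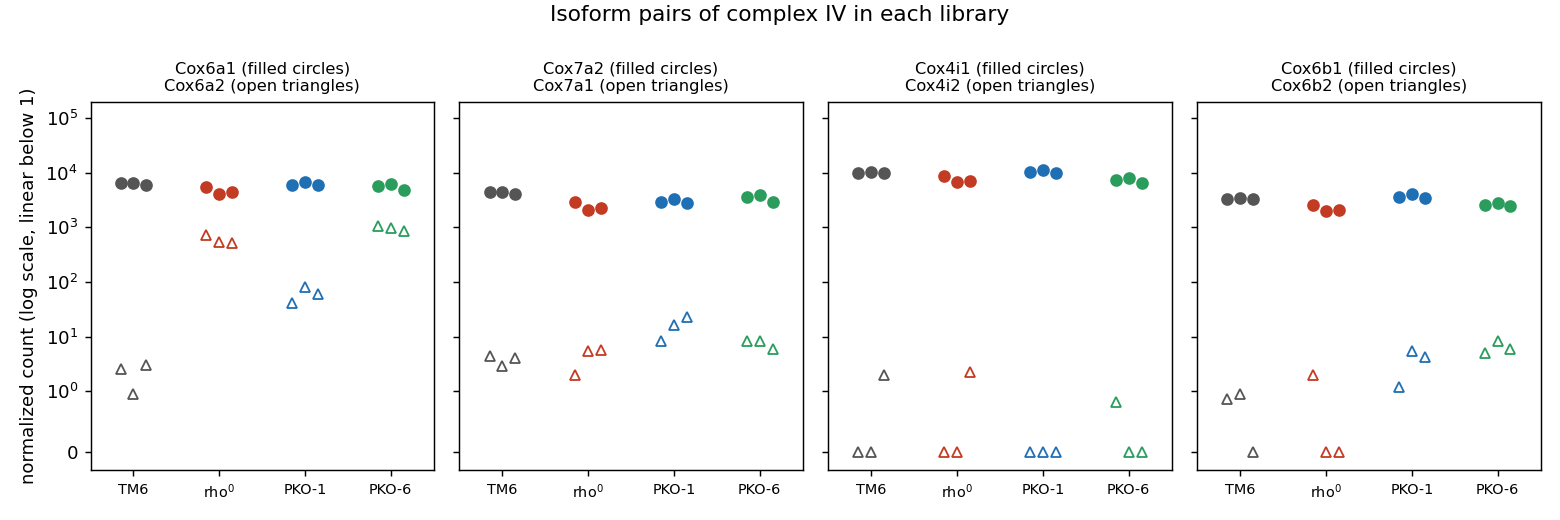
Normalized counts of the 2 genes of each isoform pair in each library of the 4 lines, on an axis that is logarithmic above 1 and linear below. Per length, *Cox6a2* makes up 0.0256% of its pair in TM6, 8.52% for rho0, 0.705% for clone PKO-1 and 11.2% for clone PKO-6.

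The striated muscle label of *Cox6a2* was read against 38 muscle markers. Of these, 9 had no counts in any library, among them the regulators *Myog*, *Myf5* and *Myf6*, and 28 had a mean under 10 normalized counts. Their summed normalized counts were 1569 ± 72.3 for TM6, 2424 ± 159 for rho0, 3055 ± 114 for clone PKO-1 and 3459 ± 230 for clone PKO-6, of which the most abundant gene, *Eno3*, gave 1298, 2004, 2570 and 2368. Of the 12 that passed the filter, 2 were higher and 2 lower in rho0, 3 higher and 0 lower in PKO-1, and 5 higher and 1 lower in PKO-6. Without *Eno3* the sums were 272, 420, 485 and 1091. Whether *Cox6a2* and these markers are linked was not tested.

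The 5 genes whose log2 levels followed *Cox6a2* most closely over the 12 libraries, among 11884 that average 50 or more normalized counts, were *Extl1* (Pearson r 0.9975), *Rgl3* (0.997), *Ift172* (0.9959), *Sesn2* (0.9947) and *Gnpda1* (0.9944). The 12 libraries form 4 lines, so these values describe line means and carry no p. *Extl1* averaged 13.2 ± 1.56 normalized counts in TM6, 1151 ± 80.1 for rho0, 148 ± 23.2 for clone PKO-1 and 1449 ± 150 for clone PKO-6. *Sesn2* averaged 1076 ± 86.5, 6966 ± 742, 2803 ± 118 and 7474 ± 800 in the same order. Both were chosen for their likeness to *Cox6a2* in these libraries, so their order over the lines is no separate result.

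Subunit 7a has a widely expressed form from *Cox7a2* and a heart and muscle form from *Cox7a1*, which is also found in brown fat. Normalized counts of *Cox7a2* (chr9:79755241-79759853, minus strand) were 4494, 4457 and 4017 in TM6, 2898, 2069 and 2229 in rho0, 2906, 3309 and 2854 in PKO-1, and 3546, 3925 and 2898 in PKO-6. All TM6 libraries were above all others, and the derived lines overlapped. In log2 units the change against TM6 was -0.85 in rho0 (adjusted p 3.2e-05), -0.52 in PKO-1 (0.00221) and -0.32 in PKO-6, which was not called. With chromosome medians removed the rho0 value was -0.86 and still called, and the PKO-6 value was -0.30. The PKO-1 call was near the fold threshold: with chromosome medians removed the value was -0.13, and the call was lost without TM6 replicate 2 (-0.49), without PKO-1 replicate 1 (-0.49) or without PKO-1 replicate 3 (-0.47).

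*Cox7a1* (chr7:30184171-30186030, plus strand) had 2 to 22 counts per library, 92 in all, and did not pass the filter. Its counts were 5, 3 and 4 in TM6, 2, 5 and 5 in rho0, 7, 15 and 22 in PKO-1, and 10, 8 and 6 in PKO-6. All PKO-1 and PKO-6 libraries were above all TM6 libraries. Fitted without the filter, the log2 fold change against TM6 was 2.03 in PKO-1 (adjusted p 0.00199) and 0.97 in PKO-6 (0.149, not called), values that depend on the prior count. Per length, *Cox7a1* made up 0.27% ± 0.0606 of the pair with *Cox7a2* in TM6, 0.608% ± 0.354 for rho0, 1.6% ± 0.756 for clone PKO-1 and 0.656% ± 0.0372 for clone PKO-6.

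Subunit 4 has a widely expressed form from *Cox4i1* and a form known from lung from *Cox4i2*. Normalized counts of *Cox4i1* (chr8:120668225-120674209, plus strand) were 10122, 10307 and 10030 in TM6, 8666, 6905 and 7043 in rho0, 10417, 11134 and 9825 in PKO-1, and 7353, 8024 and 6543 in PKO-6. PKO-1 overlapped TM6, and rho0 and PKO-6 were below both. Against TM6 the log2 fold change was -0.43 for rho0, 0.04 for clone PKO-1 and -0.47 for clone PKO-6, all under the fold threshold. The values were -0.24, 0.15 and -0.04 (adjusted p 0.633 in PKO-6) with chromosome medians removed. Without rho0 replicate 1 the rho0 value was -0.56 and was called. The PKO-6 value was called at -0.51 without TM6 replicate 1, any 1 of the rho0 libraries or PKO-6 replicate 1, and at -0.58 without PKO-6 replicate 2. *Cox4i2* had 5 counts in all, at most 2 in a library, and made up at most 0.0325% of the pair per length in any library.

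The other isoform partners were near or at 0. *Cox6b2*, the testis form of subunit 6b, had 34 counts in all and at most 8 in a library, and per length made up 0.0192% of its pair with *Cox6b1* in TM6 and 0.232% ± 0.0294 in PKO-6. Fitted without the filter, it was called in PKO-6 against TM6 (log2 fold change 3.09, adjusted p 0.00597), with 1, 1 and 0 counts in TM6 and 6, 8 and 6 in PKO-6. *Cox7b2*, *Cox8b* and *Cox8c* had no counts in any library; a count of 0 allows up to 3 counts, which is 0.0441 to 0.0636 CPM (counts scaled to the library total) depending on the library.

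Markers of the tissues known for these forms were also read. Of 10 brown fat markers, 6 had a mean under 10 normalized counts and 4 passed the filter, with 2 higher and 1 lower in rho0, 1 and 1 in PKO-1, and 2 and 2 in PKO-6. Of 10 pericyte markers, a cell type in which *Cox4i2* is known, 7 passed, with 3 higher and 1 lower in rho0, 1 and 2 in PKO-1, and 4 and 2 in PKO-6. The pericyte markers summed to 16875 normalized counts in TM6, 14201 in rho0, 10918 in clone PKO-1 and 10775 in clone PKO-6, and *Cspg4* was the most abundant of them. Of 13 testis germ cell markers, 11 had a mean under 10 and 2 passed the filter; *Ddx4* was higher in all 3 lines (4.02, 3.33 and 4.26 on the log2 scale) and the other was not called.

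*Cox7b* encodes a small subunit with no second form detected in these cells. Its normalized counts (chrX:106015700-106022450, plus strand) were 4618, 5139 and 4987 in TM6, 1983, 1732 and 1864 in rho0, 2722, 2795 and 2544 in PKO-1, and 1873, 1911 and 1927 in PKO-6. TM6 was above all other libraries, and PKO-1 lay between TM6 and the overlapping rho0 and PKO-6 libraries. Its log2 fold change against TM6 was -1.40 ± 0.0606 in rho0 (SE, adjusted p 1.68e-10), -0.87 ± 0.0596 in PKO-1 (2.25e-08) and -1.37 ± 0.0604 in PKO-6 (1.54e-10). With the chromosome medians removed, it was -0.63 in rho0, still called, -0.14 in PKO-1 and -0.48 in PKO-6, neither of them called.

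*Cox6c* encodes a small subunit, and *Cox6b1* encodes a subunit on the intermembrane space side. Normalized counts of *Cox6c* (chr15:35931976-35938246, minus strand) were 4782, 5150 and 5179 in TM6, 3157, 2751 and 2930 in rho0, 4697, 4595 and 4249 in PKO-1, and 4231, 4528 and 4572 in PKO-6. The rho0 libraries were below all others, and both clones were slightly below TM6. It was at -0.77 in rho0 (adjusted p 8.46e-08), -0.16 in PKO-1 and -0.18 in PKO-6, and against rho0 it was at 0.61 in PKO-1 and 0.59 in PKO-6, both called. Chromosome medians once removed, the values against TM6 were -0.36, 0.06 and -0.10 (rho0, PKO-1, PKO-6), and those against rho0 were 0.43 in PKO-1 and 0.26 in PKO-6, all 5 under the fold threshold. With the length trend removed, PKO-1 against rho0 was at 0.45 and lost its call.

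*Cox6b1* was at -0.59 in rho0 (adjusted p 4.5e-05), with 3247, 3508 and 3311 normalized counts in TM6 and 2602, 1977 and 2097 in rho0, and was not called in PKO-1 (0.15) or PKO-6 (-0.35). *Cox5a*, on chromosome 9, encodes a matrix-side subunit and was called in PKO-1 alone, at -0.70 (adjusted p 3.33e-05). Its normalized counts were 4637, 4813 and 4593 in TM6 and 2969, 3002 and 2660 in PKO-1, and with chromosome medians removed the value was -0.31 and not called. Without PKO-6 replicate 2 *Cox5a* was also called in PKO-6, at -0.52. In both genes the groups named did not overlap. *Cox5b*, *Cox7c* and *Cox8a* were called in no comparison with TM6, and *Cox8a* had the highest level per length of complex IV in TM6, 18679.

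*Cox7a2l*, the supercomplex factor, moved the other way. Its normalized counts (chr17:83501917-83514333, minus strand) were 3677, 3823 and 3828 in TM6, 6151, 4935 and 5212 in rho0, 4814, 4946 and 4475 in PKO-1, and 6934, 6746 and 6228 in PKO-6. Every derived library was above every TM6 library, and PKO-6 was highest. The log2 fold change was 0.53 in rho0 (adjusted p 2.63e-05), 0.33 in PKO-1, under the fold threshold, and 0.81 in PKO-6 (3.33e-07). The rho0 call was lost without TM6 replicate 1 (0.48), without rho0 replicate 1 (0.41), with only the compared lines fitted (0.50), and with chromosome medians removed (0.34).

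In complex V, *Atp5a1*, *Atp5b*, *Atp5c1*, *Atp5d* and *Atp5e* encode the alpha to epsilon subunits of the catalytic head and central stalk. *Atp5b* had the highest level per length in TM6, 50400, and *Atp5s* the lowest, 176. Normalized counts of *Atp5c1* (chr2:10056031-10080510, minus strand) were 8830, 9770 and 9856 in TM6, 6591, 5714 and 6052 in rho0, 8735, 8446 and 7911 in PKO-1, and 5681, 5835 and 5733 in PKO-6. TM6 and PKO-1 were above rho0 and PKO-6 in every library. Relative to TM6, the log2 fold change was -0.63 in rho0 (adjusted p 7.84e-07), -0.18 in PKO-1, not called, and -0.72 in PKO-6 (1.86e-07). *Atp5d* was called in rho0 alone, at -0.58 (adjusted p 0.000278), and with chromosome medians removed it was at -0.41 and not called.

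The membrane ring of complex V is made of subunit c, whose mature protein is encoded by *Atp5g1*, *Atp5g2* and *Atp5g3* alike. Normalized counts of *Atp5g3* (chr2:73908447-73911326, minus strand) were 8783, 8645 and 8214 in TM6, 4973, 3647 and 3919 in rho0, 6138, 6679 and 6147 in PKO-1, and 5294, 6284 and 3943 in PKO-6. All TM6 libraries were above all others. It was at -1.03 ± 0.14 in rho0 (SE, adjusted p 1.56e-05), -0.44 in PKO-1, not called, and -0.72 ± 0.139 in PKO-6 (0.000339).

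*Atp5g1* was called lower in PKO-6 (-0.57, adjusted p 0.00317), where its normalized counts were 3222, 3678 and 2333 beside 4792, 4649 and 4265 in TM6, and *Atp5g2* was called in no line. Without rho0 replicate 1 *Atp5g1* was also called in rho0, at -0.54. The *Atp5g1* call in PKO-6 was lost without PKO-6 replicate 3 (-0.41), without TM6 replicate 2 (-0.56, adjusted p 0.0102) and with chromosome medians removed (-0.50). Per length, *Atp5g3* made up 42.7% ± 0.394 of the 3 genes in TM6 (SD, n = 3), 30.7% ± 0.702 for rho0, 37.9% ± 0.477 for clone PKO-1 and 31.8% ± 1.88 for clone PKO-6. The share of *Atp5g2* was 37.7% ± 0.166, 46.9% ± 1.5, 44.1% ± 0.924 and 51.9% ± 2.72 in the same order. *Atp5g3* was thus the main gene of subunit c in every TM6 library, and *Atp5g2* in every library of the derived lines.

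*Atp5k* and *Atp5l* encode subunits e and g, which join ATP synthase into dimers, and *Atp5j2* encodes subunit f of the membrane part. Normalized counts of *Atp5k* (chr5:108433253-108434378, minus strand) were 1862, 2170 and 2018 in TM6, 1138, 981 and 1033 in rho0, 2940, 3386 and 2427 in PKO-1, and 1762, 1996 and 1759 in PKO-6. PKO-1 was above and rho0 below all other libraries, and PKO-6 overlapped TM6. The log2 fold change against TM6 was -0.94 ± 0.107 in rho0 (SE, adjusted p 3.02e-06), 0.53 ± 0.104 in PKO-1 (0.000478) and -0.13 in PKO-6, not called.

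Tested directly, *Atp5k* was higher than in rho0 by 1.47 in PKO-1 (adjusted p 5.77e-08) and by 0.81 in PKO-6 (3.07e-05) on the log2 scale. Its call in PKO-1 against TM6 was lost without TM6 replicate 1 (0.45), without PKO-1 replicate 2 (0.41), with chromosome medians removed (0.43) and with the trend with transcript length removed (0.30). Normalized counts of *Atp5j2* were 5045, 4883 and 4692 in TM6, 3021, 2279 and 2572 in rho0, 4488, 5126 and 4260 in PKO-1, and 3397, 3920 and 2851 in PKO-6. The rho0 and PKO-6 libraries were below all TM6 and PKO-1 libraries. *Atp5j2* was called in rho0 (-0.89, adjusted p 9.96e-06) and in PKO-6 (-0.52, 0.000961), the second of these not without PKO-6 replicate 3 (-0.41).

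*Atp5l* was called in rho0 alone (-0.54, adjusted p 0.000123), with 3686, 4027 and 3777 normalized counts in TM6 and 3016, 2511 and 2380 in rho0; without rho0 replicate 3 it was at -0.49 and lost its call, and with chromosome medians removed it was at -0.55 and kept it. The subunits of the peripheral stalk (*Atp5f1*, *Atp5h*, *Atp5j* and *Atp5o*) were called in no comparison with TM6. In PKO-1, 3 of these 4 were nevertheless higher than in rho0: *Atp5o* (0.57, adjusted p 9.04e-06), *Atp5h* (0.54, 8.93e-06) and *Atp5j* (0.54, 5.83e-05). Of all tested genes 15.1% were higher, and 4 genes are too few to set against this share. The 3 values were 0.47, 0.49 and 0.44 with chromosome medians removed and 0.49, 0.40 and 0.43 with the length trend removed, none of them called. *Atp5h* also lost its call without rho0 replicate 2 (0.49) or 3 (0.49), and *Atp5j* without rho0 replicate 2 (0.47). *Atp5o* was also higher in PKO-1 than in PKO-6 (0.62, adjusted p 4.06e-06), and with chromosome medians removed this was 0.43 and not called. In PKO-1 against TM6, edgeR and DESeq2 each called 0 genes of complex V lower, and edgeR had 4 at an unadjusted p below 0.05. Of all tested genes, edgeR called 17.9% lower in that comparison. *Atp5f1*, *Atp5j*, *Atp5d*, *Uqcrc2* and *Cox4i2* also overlap a gene on the opposite strand and *Atp5b* overlaps a microRNA gene with no counts on its own strand, so their counts are uncertain in the way described for *Cox6a2*. The neighbors of *Atp5d* and *Uqcrc2* had at most 48 and 21 counts in a library, where these members had at least 6494 and 2353, and the neighbors of *Atp5f1*, *Atp5j* and *Cox4i2* had up to 7106, 9583 and 6159.

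*Atp5s* and *Atp5sl* were low in level and higher in all 3 derived lines. Normalized counts of *Atp5s* (chr12:69724962-69744658, plus strand) were 209, 237 and 239 in TM6, 458, 429 and 409 in rho0, 429, 415 and 416 in PKO-1, and 387, 389 and 355 in PKO-6. Those of *Atp5sl* (chr7:25619414-25625550, plus strand) were 291, 266 and 305 in TM6, 556, 548 and 587 in rho0, 438, 500 and 489 in PKO-1, and 489, 529 and 501 in PKO-6. For both genes every derived library was above every TM6 library. Against TM6, *Atp5s* was at 0.92 in rho0, 0.88 in clone PKO-1 and 0.72 in clone PKO-6; with chromosome medians removed it was at 0.40, 0.33 and 0.19, none of them called. *Atp5sl* was at 0.97 (adjusted p 1.84e-07), 0.73 (4.42e-06) and 0.82 (9.86e-07), and remained called with chromosome medians removed, at 0.85, 0.63 and 0.82.

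Of 43 tested assembly factors of complexes II to V, 6 were higher and 4 lower in rho0 (14% and 9.3%, against 20.7% and 21.4% of all tested genes), 10 higher and 3 lower in PKO-1 (23.3% and 6.98%, against 16.4% and 17.9%), and 3 higher and 3 lower in PKO-6 (6.98% each, against 21.9% and 19.4%). The counts with chromosome medians removed were 3 higher and 4 lower in rho0 (6.98% and 9.3%, against 19.8% and 18.8%), 5 and 2 in PKO-1 (11.6% and 4.65%, against 13.7% and 15.1%), and 3 and 4 in PKO-6 (6.98% and 9.3%, against 20.6% and 17.7%). Their median log2 fold changes were 0.01, 0.25 and 0.07. By complex, 3 of 4 factors of complex II and 3 of 6 of complex III were higher in PKO-1, beside 1 and 0 in rho0 and 1 and 0 in PKO-6; lists of 4 and 6 genes are too small to set against these shares. At complex IV, 4 of 28 were higher and 4 lower in rho0, 4 and 3 in PKO-1, and 2 and 3 in PKO-6, while 1 of 5 factors or inhibitors of complex V was called, higher in rho0. The complex IV factor *Apopt1* was higher in all 3 lines, at 1.55 in rho0 (adjusted p 1.12e-10), 0.97 in PKO-1 (1.75e-08) and 1.32 in PKO-6 (4.35e-10), and lies on chromosome 12. It was at 1.03, 0.42 and 0.78 with chromosome medians removed, and the PKO-1 call was lost. Its normalized counts were 523 ± 17.8 for TM6, 1529 ± 90.9 for rho0, 1022 ± 53.9 for clone PKO-1 and 1303 ± 32.3 for clone PKO-6 (SD, n = 3), with no overlap between TM6 and the rest. *Sdhaf3*, a complex II factor named after its values were seen, was also higher in all 3 (0.99, 0.79 and 0.94).

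Other subunits and cytochrome c fall outside the symbol rule. Of 6 such genes, 5 were tested, with 1 higher and 2 lower in rho0, 1 higher and 0 lower in PKO-1, and 1 higher and 0 lower in PKO-6. The pair lower in rho0 was *Usmg5*, a small subunit of complex V, and *Ndufa4*, a subunit now placed in complex IV; *Cycs*, cytochrome c, was the gene higher in PKO-1. These 3 were named after their values were seen.

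Promoter windows were read because several members, among them *Uqcrh*, *Uqcr11* and *Atp5k*, were lower in rho0 than in both clones when tested directly. RefSeq windows of 300 bases (250 before to 50 after the gene's start, build GRCm38.p6) were matched to 34 members by symbol and to 3 by synonym; *Sdhc*, *Cyc1*, *Uqcrb*, *Uqcrc2*, *Uqcrq*, *Cox4i1*, *Cox4i2*, *Cox6a2*, *Cox6c*, *Cox8c* and *Atp5a1* had none. Letters were searched on both strands in these 37 windows and in all 32851. GCGCANGC, letters known for nuclear respiratory factor 1 (NRF1), was in 14 of the 37 windows (37.8%) and in 9.95% of all. CCGGAAG, known for ETS factors, was in 11 (29.7%) and in 8.86% of all, AAGATGGC, known for YY1, in 3 (8.11%) and in 2.75%, and TCAAGGTCA, known for estrogen-related receptors, in 2 (5.41%) and in 0.423%. TGATGNAA, known from amino acid response elements, was in 0 of the 37 and in 3.97% of all, and in 0 of the 4 matched genes that followed *Cox6a2*. A match is a description of letters, and its absence says only that they are not in the window.

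The stretches from 150 bases before to 20 bases after the start are shown for *Uqcrh* (chr4:116075051-116075220, minus strand), *Atp5k* (chr5:108434380-108434549, minus strand) and *Uqcr11* (chr10:80406802-80406971, minus strand), and for *Cox6a1* (chr5:115348939-115349108, minus strand) as the widely expressed partner of *Cox6a2*. Sequences are from RefSeq (GRCm38.p6), 5′ to 3′ on the gene's strand, and capitals mark the NRF1 and ETS letters on either strand.
Uqcrh: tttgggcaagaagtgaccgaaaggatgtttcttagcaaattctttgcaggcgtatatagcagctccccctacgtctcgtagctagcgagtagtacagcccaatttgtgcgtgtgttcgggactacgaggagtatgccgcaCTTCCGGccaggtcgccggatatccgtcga
Atp5k: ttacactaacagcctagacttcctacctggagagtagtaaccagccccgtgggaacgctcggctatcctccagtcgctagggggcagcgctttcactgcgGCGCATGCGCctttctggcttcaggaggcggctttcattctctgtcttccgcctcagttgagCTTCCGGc
Uqcr11: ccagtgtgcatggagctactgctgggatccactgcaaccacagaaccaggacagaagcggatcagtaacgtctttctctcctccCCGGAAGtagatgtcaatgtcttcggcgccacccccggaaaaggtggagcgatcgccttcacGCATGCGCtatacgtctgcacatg
Cox6a1: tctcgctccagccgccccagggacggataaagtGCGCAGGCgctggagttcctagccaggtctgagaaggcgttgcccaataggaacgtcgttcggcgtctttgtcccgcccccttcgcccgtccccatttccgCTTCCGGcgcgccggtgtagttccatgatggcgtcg
All 4 stretches hold the ETS letters, and those of *Atp5k*, *Uqcr11* and *Cox6a1* also hold the NRF1 letters, with a pair of overlapping matches in *Atp5k*. The same stretches of *Cox7b* and *Cox7a2*, also called lower in rho0, and of *Cox7a1* hold neither. The other matched genes called lower in rho0 were read over the 300-base window. There *Sdhd* and *Atp5l* hold both sets, *Cox6b1* the ETS letters, *Atp5g3* and *Atp5j2* the NRF1 letters, and *Uqcrfs1*, *Atp5c1* and *Atp5d* neither. *Cox6a1*, which shares both sets of letters, was called in no line.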

How the data were processed

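RNA was sequenced from 12 samples, 3 per line. The deposited tables hold estimated counts per gene and per transcript, not normalized, which the authors made by aligning reads with RSEM 1.2.25 and bowtie2 to RefSeq transcripts of GRCm38, and effective transcript lengths in bases. Counts were rounded and tested with edgeR 4.0.16 in R 4.3.3: filterByExpr (minimum count 10), TMM scaling, a quasi-likelihood fit of the 4 lines, and Benjamini-Hochberg adjustment over 14026 genes, in 6 comparisons. Normalized counts are counts divided by TMM size factors scaled to mean depth. The SE of a log2 fold change is its absolute value over the square root of the quasi-likelihood F. Members and gene lists were chosen with earlier results of these data known. Named members are those of isoform groups, those called in a comparison with TM6, and the most abundant and most changed of each complex; named genes of other lists are examples, some chosen after their values were seen. Alternatives were DESeq2 1.42.0 (size factors, Wald test), no filter, a replicate term, only the compared lines, pooled clones, other thresholds, chromosome medians removed, each library left out, and, chosen after the data were seen, the trend with transcript length removed. Python 3.11.15, pandas 2.3.3, scipy 1.17.1 and matplotlib 3.10.9 made summaries and figures. Protein sequences were not available.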

Additional observations from a re-analysis of the deposited data

Results flagged for a closer look

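The knockout clones PKO-1 and PKO-6 were made alike, and 7 subunit genes differed between them when tested directly with edgeR. On the log2 scale, PKO-1 minus PKO-6, the difference was 0.54 for *Atp5c1*, 0.67 for *Atp5k*, 0.62 for *Atp5o*, 0.52 for *Cox4i1*, 0.50 for *Cox6b1*, 0.56 for *Uqcrh* and -3.97 for *Cox6a2*. The values for *Cox4i1* and *Cox6b1* were near the fold threshold: without PKO-1 replicate 2 they were 0.47 and 0.44, and without PKO-6 replicate 3 they were 0.45 and 0.47, and neither was then called. With chromosome medians removed *Cox4i1* was at 0.19 (adjusted p 0.0472), *Cox6b1* at 0.40 and *Atp5o* at 0.43, and with the length trend removed *Cox4i1* was at 0.48, *Cox6b1* at 0.42 and *Uqcrh* at 0.48, none of these called. *Cox6b1* also lost its call with DESeq2 (0.50), with its size factors (0.50) and with no filter (0.49). In the other direction, *Uqcr11* was called with chromosome medians removed (0.51, adjusted p 0.00159). *Cox7b*, not called at 0.50, was called without PKO-1 replicate 3 (0.54) or PKO-6 replicate 3 (0.51). It was also called at 0.50 without TM6 replicate 1, PKO-6 replicate 2 or any 1 of the rho0 libraries. With chromosome medians removed *Cox7b* was not called, and over all alternatives its value ranged from 0.34 to 0.54. *Atp5j2* was called without PKO-1 replicate 3 (0.51) or PKO-6 replicate 2 (0.57). Lower in PKO-1, *Cox7a2l* was called without PKO-1 replicate 2 (-0.51) or PKO-6 replicate 3 (-0.53). *Uqcrc1* was called lower without PKO-6 replicate 3, and over all alternatives it ranged from -0.55 to -0.08. Of all tested genes, 11.5% were higher in PKO-1 and 17.6% higher in PKO-6.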

How the results depend on the processing

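For the named members, 60 called results were refitted 1194 times under the alternatives; 80 refits lost the call in the same direction and 1 reversed, and of 2019 refits of 102 results not called, 47 were called in the same direction and 0 in the other. The refits share most of their libraries, and many left out a library of a line outside the comparison. They are therefore not independent checks, and these counts do not measure how stable a call is. With an absolute log2 fold change above 1, the numbers of subunit genes called were 4 (rho0 against TM6), 1 (PKO-1 against TM6), 2 (PKO-6 against TM6), 1 (PKO-1 against PKO-6), 3 (PKO-1 against rho0) and 0 (PKO-6 against rho0), where 21%, 16.2%, 21.7%, 13.9%, 15.7% and 10.8% of all tested genes were called, and those of assembly factors against TM6 were 2, 1 and 2 in the same order (4.65%, 2.33% and 4.65%). With adjusted p below 0.01 alone, they were 20 and 20 subunit genes in PKO-1 and PKO-6 against TM6, 17 between the clones, 21 and 14 in PKO-1 and PKO-6 against rho0, and 17, 28 and 20 assembly factors (39.5%, 65.1% and 46.5%). These subunit counts are 47.6%, 47.6%, 40.5%, 50% and 33.3%, where 54.3%, 61%, 50%, 53.9% and 40.7% of all tested genes passed. For rho0 against TM6, 27 subunit genes passed (64.3%), where 62.1% of all tested genes did. The changes in count under both thresholds follow from the threshold itself. With chromosome medians removed, PKO-1 against TM6 had 2 subunit genes and 7 assembly factors. With the length trend removed, the clones differed in 4 subunit genes in place of 7, where the calls of all tested genes went from 4087 to 4102. The cause of these changes was not tested. With the clones pooled, the clone comparison has no value, PKO against rho0 gave 4 subunit genes, PKO against TM6 gave 7 assembly factors, and *Cox6a2* in PKO against rho0 was at -0.21 (adjusted p 0.877), where the value of PKO-6 had been positive; this mixes the clones. Without division by length the *Cox6a2* share of its pair was 11.2% for rho0, 0.958% for clone PKO-1 and 14.7% for clone PKO-6. Leaving out 1 library at a time gave 17 to 22, 8 to 12 and 7 to 14 subunit genes against TM6 (rho0, PKO-1, PKO-6), with 7 without PKO-6 replicate 3 and 14 without PKO-6 replicate 2. It gave 6 to 9 between the clones, 12 to 15 for PKO-1 and 4 to 8 for PKO-6 against rho0 (4 without rho0 replicate 2 or 3 or PKO-6 replicate 1), and 8 to 11, 9 to 13 and 6 to 8 assembly factors. The *Cox6a2* shares ranged over 0.0199% to 0.0329% (TM6), 8.26% to 8.88% (rho0), 0.615% to 0.81% (PKO-1) and 10.8% to 11.6% (PKO-6). A replicate term gave 18, 9, 11, 7, 13 and 6 subunit genes, but the labels give no pairing and the data show none over all lines: of 18 same-numbered pairs, r lay between -0.385 and 0.25 and was over 0.1 in 10, and 4 of 12 libraries followed their own number best. The 3 pairs of TM6 and PKO-6 were all over 0.1 (0.25, 0.25 and 0.209). With 3 cultures of 1 colony per line, the spread does not cover variation between colonies, and genes with few counts in TM6 have imprecise ratios.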
